A study of Physcomitrium patens with 6 samples.

Results

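The protonema of Physcomitrella patens at day 24, when buds had formed on it, was compared with protonema at day 14, when it was filamentous. The comparison took every gene model with over 100 tags in at least 1 of the 2 libraries, which gave 7913 gene models, at 7827 loci, of the 19265 gene models with a value in at least 1 of the 6 libraries of the series. For a second comparison that is used below only as a description of the same genes, laser-captured chloronema and caulonema cells of day 14 protonema, 4292 gene models passed the same limit. Transcripts were counted by digital gene expression, in which a 21-nt tag is sequenced next to a CATG site of each transcript, cut by the enzyme NlaIII. Moss tissue was regenerated from isolated protoplasts on solid medium, and all tissue was collected at the same time of day. Day 14 tissue held well-developed chloronema and caulonema filaments, and day 24 tissue held filaments together with buds, the initials of leafy shoots. No treatment is named for either day, and the days differed in age and in the stage that goes with it. The submitters' labels call the tissue of both days leafy shoot, while their growth protocol and the study describe protonema, and no set of bud markers was defined against which the label could be checked.

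Protonema is the filamentous juvenile phase of the moss gametophyte. Chloronema cells are rich in chloroplasts, caulonema cells are longer, grow faster at the tip and have oblique cross walls, and buds arise from side branch initials, mainly of caulonema. In a bud an apical cell begins to divide in several planes, which ends filamentous growth and produces the leafy gametophore, and auxin and cytokinin are known to promote these transitions. Whole cultures were sampled here, so that fewer cells of a type and less RNA per cell cannot be told apart.

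The day 14 library held 7027742 tags assigned to genes and listed 16555 gene models, and the day 24 library held 5857712 tags and listed 16238. Of 17901 gene models in either, 14892 were in both, 1663 were only in the day 14 library and 1346 only in the day 24 library. Scaling by trimmed mean of M values (TMM) set the effective sizes at 5845161 and 5831449 tags, a ratio of 0.998, so that a tag carried nearly the same weight on both days and the tag numbers given below can be read side by side. Levels are given as normalized TPM, tags divided by the scaled library size and multiplied by 1e+06. Biological replicates had been pooled into 1 library per day, and therefore nothing below has a replicate check. A gene was called higher or lower if its scaled ratio was over 2-fold and if an exact binomial test on its tags gave p under 0.01 and a Benjamini-Hochberg adjusted p under 0.001. This test compares 2 libraries and not 2 conditions. The range in parentheses after a fold difference is its exact binomial 95% interval, which covers counting error only, since PCR copies of a tag are not independent molecules.

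At day 24, 1832 gene models were called higher, which is 23.2% of those tested, and 2088 were called lower, which is 26.4%. The other 3993 were not called. The median log2 ratio was -0.06, percentiles 25 and 75 were -1.07 and 0.92, and percentiles 5 and 95 were -2.60 and 2.34. Every gene model with a ratio over 2-fold passed the counting test, so that the fold limit alone decided the calls. With libraries scaled to their total gene tags instead of by TMM, the median moved to 0.20 and the calls to 2289 higher and 1660 lower, which raised the share of calls that were higher from 46.7% to 58.0%. Differences over 4-fold were seen in 603 gene models that were higher and 775 that were lower, and differences over 32-fold in 46 and 17. The gene models called higher were the scarcer ones, with a median of 76 tags at day 14 and 255.5 at day 24, and those called lower had medians of 377 and 107. Genes called lower together gave 39.4% of all gene tags at day 14 and 13.3% at day 24, whereas genes called higher gave 7.18% and 26.7%.

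**Figure D1:**
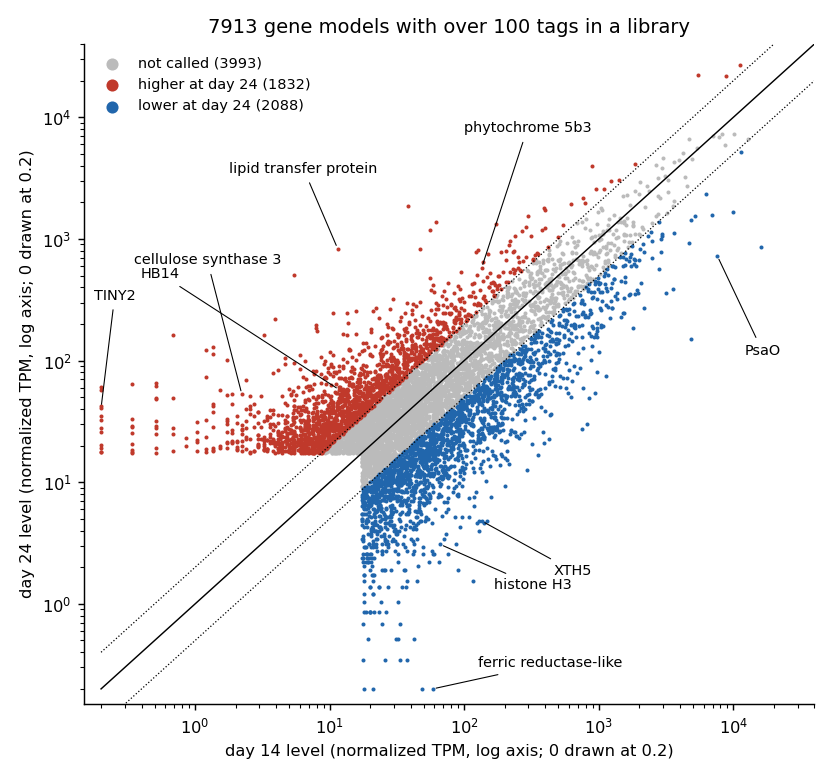
Level of each of the 7913 gene models tested (normalized TPM, log axes) at day 14 (horizontal) and day 24 (vertical), with genes called higher at day 24 in red, lower in blue and not called in grey. The 1832 red and 2088 blue points lie beyond the 2-fold lines, with single genes marked at the edges of the cloud.

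Grouped by their Gene Ontology (GO) terms, lists of regulatory genes leaned higher at day 24 and lists of the plastid and protein-making machinery leaned lower. Of all tested genes 23.2% were higher and 26.4% lower. Protein kinases had 92 of 213 tested members higher and 22 lower, with a median log2 ratio of 0.85. Transcription regulators had 67 of 155 higher and 22 lower, with a median of 0.63. In the hormone response list 53 of 155 were higher and 25 lower, with a median of 0.41. By contrast, 165 of 292 photosystem and thylakoid genes were lower and 9 higher, with a median of -1.15. Among ribosome genes 100 of 229 were lower and 14 higher, with a median of -0.80, and among respiratory chain and ATP synthase genes 48 of 106 were lower and 5 higher, with a median of -0.87. Gene models with any plastid term had 550 of 1265 lower and 113 higher, whereas those with other GO terms only were nearly balanced, 1120 higher and 1130 lower of 4712, and those with no GO term leaned to day 24, with 599 of 1936 higher and 408 lower. Lists share members, and the medians of the 6 lists named first here kept their sign when scaled to total gene tags. Calls also went with abundance. The share called higher was 36.7% at a mean of at most 20 normalized TPM and 8.81% above 1000, and the part of abundance in the list differences was not tested.

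**Figure D2:**
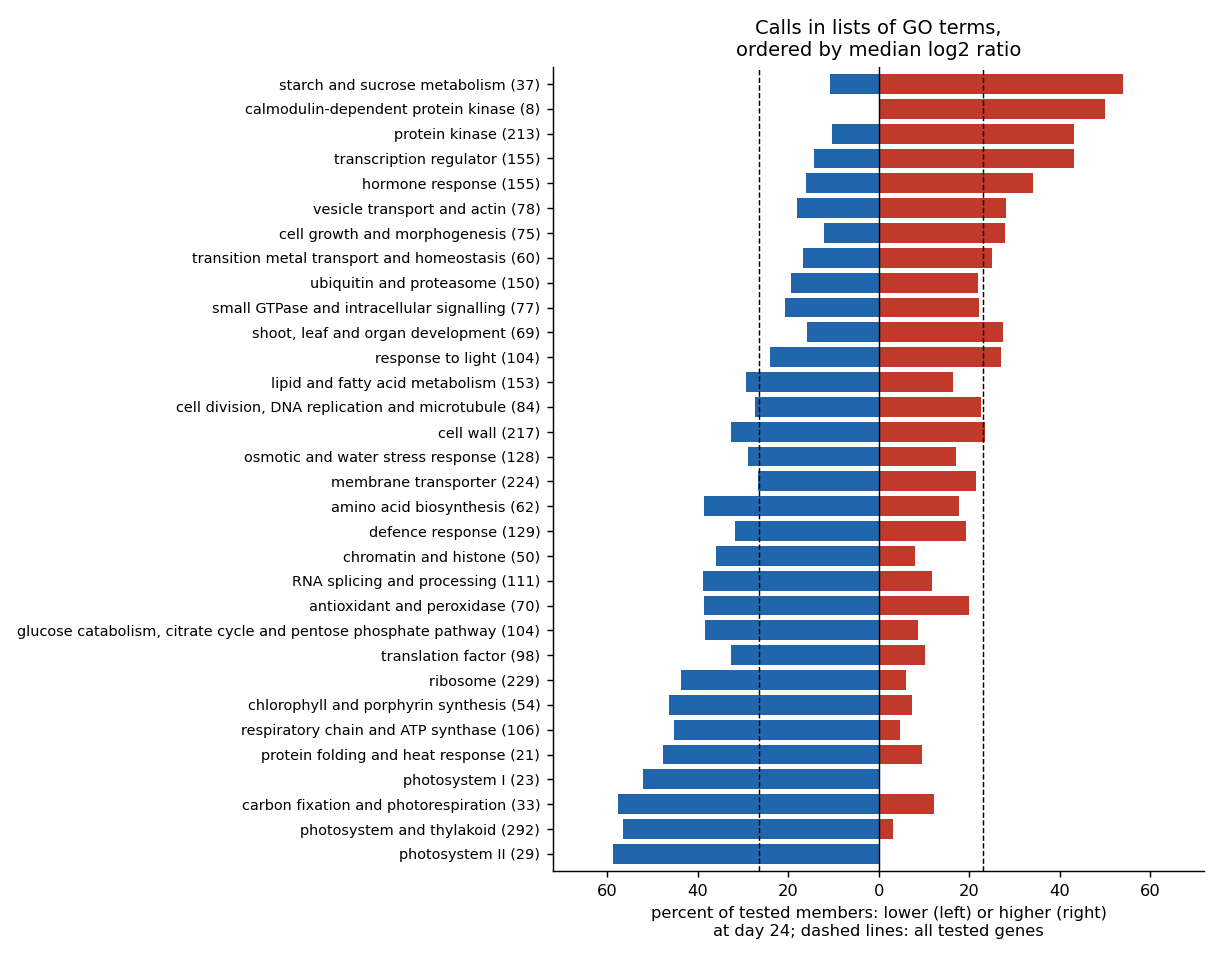
Percent of the tested members (number in parentheses) of 32 lists of GO terms that were called higher at day 24 (red, to the right) or lower (blue, to the left), ordered by median log2 ratio, with dashed lines at 23.2% and 26.4% for all tested genes. Starch, kinase and transcription regulator lists stand at the top and photosystem lists at the bottom.

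Transcription factors known from shoot and leaf development in flowering plants were among the regulators that were higher at day 24, though the whole GO list of shoot, leaf and organ development had 19 of 69 higher and 11 lower, with a median log2 ratio of 0.07. All 3 tested class III HD-Zip genes were higher, and each of them passed the tag limit only through the day 24 library. A member as scarce at day 14 that did not rise would not have been tested, so that this count does not stand for the whole family. This family of homeodomain leucine zipper proteins sets the upper side of leaves and acts in the shoot meristem and vascular tissue of flowering plants. HB10 (Pp1s70_192V6.1) went from 32 to 228 tags, 7.14-fold (4.92 to 10.7). HB13 (Pp1s67_107V6.1) went from 51 to 269 tags, 5.29-fold (3.91 to 7.28). HB14 (Pp1s188_95V6.1), matched to Arabidopsis HB-8, went from 69 to 335 tags, 4.87-fold (3.75 to 6.4), and had 16 tags at day 3 and 0 at day 30. HB14 stood at 11.8 normalized TPM at day 14 (Poisson 95% interval 9.18 to 14.9) and 57.4 at day 24 (51.5 to 63.9). These intervals cover counting error only. KANADI 3 (Pp1s114_151V6.1), matched to KAN2, of a family that acts against class III HD-Zip genes in flowering plant leaves, was also higher and went from 53 to 550 tags, 10.4-fold (7.84 to 14.1).

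The tags listed for the HD-Zip genes are shown because a single short sequence is listed per gene and day. That of HB13 was listed from a different CATG site on each day. Capitals mark the NlaIII site, and sites are counted from the 3′ end of the transcript. HB10 and HB14 were read from one site on both days. HB13 was read from site 3 at day 14 and site 2 at day 24. Its ratio may therefore compare tags of 2 sites, if the counts cover only the listed tags.
HB10, both days: CATGcaaactttattccagct
HB13, day 14: CATGtccttaggagctacagg
HB13, day 24: CATGgaagggaaagccagagt
HB14, both days: CATGgaaagttttagatgaca

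MADS-box factors, which set floral organ identity in flowering plants, did not move together. PpMADS1 (Pp1s267_56V6.1), matched to Arabidopsis SHP1, went from 79 to 294 tags, 3.73-fold (2.9 to 4.84). PPM3 (Pp1s34_373V6.1) went from 427 to 869 tags, 2.04-fold (1.81 to 2.3). A second gene model of PPM1 (Pp1s118_209V6.2) went from 154 to 393 tags, 2.56-fold (2.12 to 3.1), while the first (Pp1s118_209V6.1), at 169 and 304 tags or 1.8-fold, was not called. PPMA9 (Pp1s55_284V6.1) fell from 104 to 43 tags, 2.41-fold (1.68 to 3.53). The PpMADS1 tags, shown because they also changed site between the days, came from site 1 at day 14 and site 2 at day 24.
PpMADS1, day 14: CATGtcgatcgataagccact
PpMADS1, day 24: CATGcaaacatatcaccaagt

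The transcription factors of other families that are named here were higher or not called, though 14 of 116 genes with such activity were lower, as given below. TINY2 (Pp1s117_23V6.1), an AP2/ERF factor, was not listed at day 14 and had 238 tags at day 24, at least 79.5-fold higher against a floor of 3 tags. Gene model Pp1s55_256V6.1, which carries transcription factor terms and no name, went from 2 to 372 tags. GATA19 (Pp1s121_36V6.1), a zinc finger factor, went from 81 to 366 tags, 4.53-fold (3.55 to 5.84), and HY5 (Pp1s80_72V6.1), the bZIP factor that promotes light-dependent development in Arabidopsis, went from 46 to 162 tags, 3.53-fold (2.53 to 5.01). Of 6 tested WRKY genes 2 were higher and 0 lower. The EIN3 homologue Pp1s11_337V6.1 of ethylene signalling, at 126 and 77 tags, and the MYB gene Pp1s66_90V6.1, at 155 and 121, were not called. Among all genes with nucleic-acid-binding transcription factor activity, 51 of 116 were higher and 14 lower, with a median log2 ratio of 0.69.

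**Figure D3:**
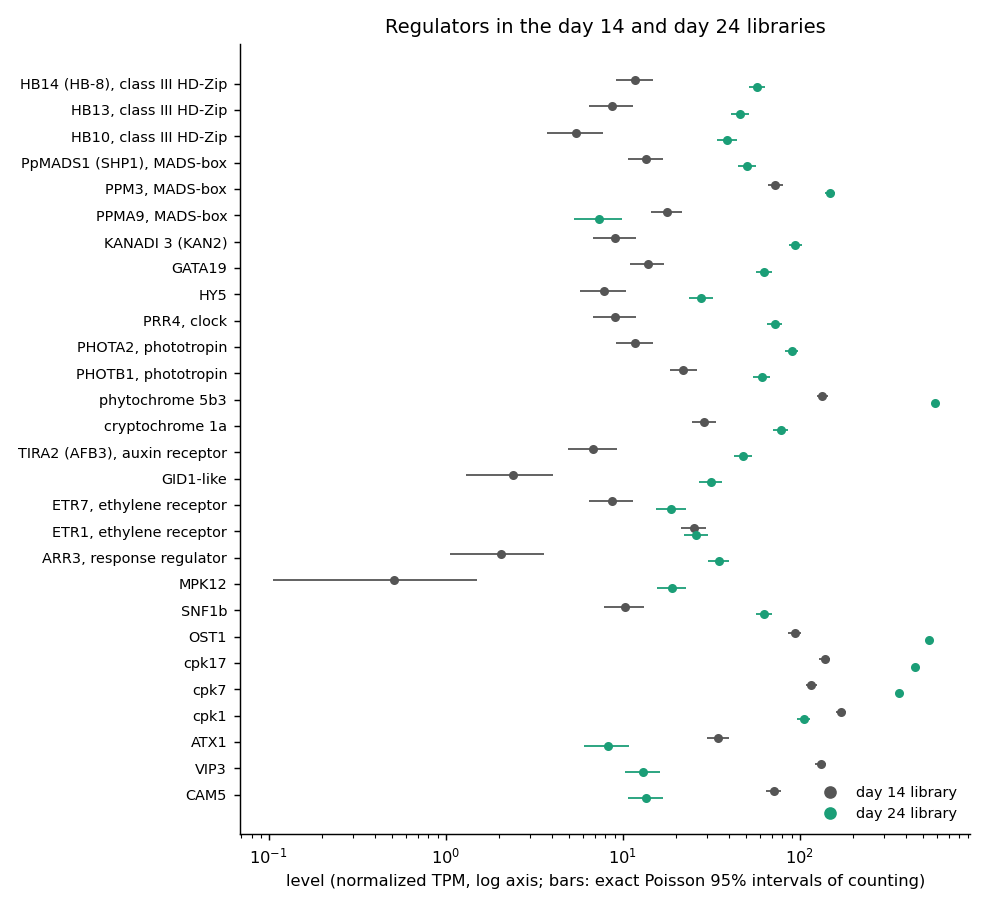
Levels of 28 regulators in the day 14 (grey) and day 24 (green) libraries (normalized TPM, log axis), with bars for the exact Poisson 95% interval of counting. The class III HD-Zip, photoreceptor and most kinase points lie to the right at day 24, ETR1 overlaps, and PPMA9, ATX1, VIP3 and CAM5 lie to the left.

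Photoreceptors and clock components had 5 of 6 tested members higher and 0 lower, with a median log2 ratio of 1.79, beside 23.2% higher of all tested genes. This family was chosen after its values had been seen. PHOTA2 and PRR4, described below, passed the tag limit only through the day 24 library. Phototropin PHOTA2 (Pp1s179_27V6.1), a blue light receptor kinase, went from 69 to 525 tags, 7.63-fold (5.92 to 9.95), and PHOTB1 (Pp1s84_194V6.1) went from 129 to 356 tags, 2.77-fold (2.26 to 3.41). Phytochrome 5b3 (Pp1s91_116V6.1), a red and far-red light receptor, went from 787 to 3379 tags, 4.3-fold (3.98 to 4.66). Cryptochrome 1a (Pp1s2_368V6.1), another blue light receptor, went from 169 to 456 tags, 2.7-fold (2.26 to 3.25). Pseudo-response regulator PRR4 (Pp1s81_144V6.2) of the circadian clock went from 53 to 421 tags, 7.96-fold (5.97 to 10.8), whereas a second pseudo-response regulator (Pp1s412_35V6.1), at 157 and 229 tags, was not called. A heme oxygenase (Pp1s158_129V6.1), the enzyme that opens heme on the way to the phytochrome chromophore, went from 1456 to 4127 tags, 2.84-fold (2.68 to 3.02). Both days were harvested at the same hour of the light cycle. The wider GO list of responses to light had 28 of 104 higher, 25 lower and a median of -0.09, which turned to 0.17 when scaled to total gene tags. With a spread of 0.2 assumed as the coefficient of variation, as described at the end, it had 17 higher and 8 lower.

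Tested genes for hormone perception and for signalling by histidine kinases were higher or not called. Among all tested genes 23.2% were higher and 26.4% lower. Each gene named as higher in this paragraph passed the tag limit only through the day 24 library. Members as scarce at day 14 that did not rise would not have been tested, so that the counts do not stand for whole families. Of 10 tested hormone receptors, 4 were higher and 0 lower, with a median log2 ratio of 0.89. TIRA2 (Pp1s16_2V6.1), matched to the Arabidopsis auxin receptor AFB3, went from 40 to 281 tags, 7.04-fold (5.04 to 10.1). A gene model named after the gibberellin receptor of flowering plants, GID1-like (Pp1s37_32V6.2), went from 14 to 184 tags, 13.2-fold (7.65 to 24.6). Ethylene receptor homologue ETR7 (Pp1s176_126V6.1) went from 51 to 110 tags, 2.16-fold (1.54 to 3.08), while ETR1 (Pp1s115_107V6.1) stood at 148 and 152 tags and was not called. Sensory histidine kinases, the class to which the cytokinin receptors belong, had 5 of 7 higher and 0 lower, with a median of 1.51. Among them a WOL-like gene (Pp1s113_161V6.2), WOL being an Arabidopsis cytokinin receptor, went from 72 to 308 tags, 4.29-fold (3.31 to 5.62), and a CKI2-like gene (Pp1s1_57V6.1) went from 49 to 175 tags, 3.58-fold (2.59 to 5.02). ARR3 (Pp1s10_378V6.1), of the response regulators that act downstream of cytokinin receptors in Arabidopsis, went from 12 to 204 tags, 17-fold (9.55 to 33.5). GA2OX8 (Pp1s127_110V6.2), in Arabidopsis a gibberellin-inactivating oxidase, went from 2 to 101 tags, 50.6-fold (13.7 to 424) with only 2 tags at day 14. The interval is correspondingly wide.

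Among protein kinases, MPK12 (Pp1s20_265V6.1), a mitogen-activated protein kinase, went from 3 to 111 tags, 37.1-fold (12.4 to 183). SNF1b (Pp1s7_365V6.1), of the SNF1-related kinases that adjust metabolism to energy supply, went from 60 to 367 tags, 6.13-fold (4.66 to 8.2). OST1 (Pp1s116_98V6.1), in Arabidopsis a kinase of abscisic acid signalling, went from 550 to 3132 tags, 5.71-fold (5.21 to 6.26), and the MAPKKK-type kinase VIK (Pp1s136_112V6.1) went from 152 to 687 tags, 4.53-fold (3.8 to 5.44). A shaggy-related kinase (Pp1s306_43V6.1) went from 91 to 298 tags, 3.28-fold (2.59 to 4.2), SK13 (Pp1s52_55V6.1) went from 62 to 263 tags, 4.25-fold (3.21 to 5.7) and the receptor-like kinase BAM2 (Pp1s59_314V6.1) went from 29 to 113 tags, 3.91-fold (2.58 to 6.09). The kinases named so far were all higher, whereas of 213 tested protein kinases 92 were higher and 22 lower. MPK12, SNF1b, the shaggy-related kinase, SK13 and the receptor-like kinase BAM2 passed the tag limit only through the day 24 library. Kinases as scarce at day 14 that did not rise would not have been tested. Calcium-dependent protein kinases had 2 of 10 higher and 0 lower, a share near the 23.2% of all tested genes called higher. Of 10 tested, cpk17 (Pp1s138_79V6.1) went from 812 to 2631 tags, 3.25-fold (3.0 to 3.52), cpk7 (Pp1s309_91V6.1) went from 682 to 2137 tags, 3.14-fold (2.88 to 3.43), and 8 including cpk1 (Pp1s96_216V6.1), at 1001 and 614 tags, were not called.

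Calcium sensors without a kinase domain were seen on both sides. An EF-hand protein (Pp1s168_83V6.1) went from 326 to 6839 tags, 21-fold (18.8 to 23.6), while the calmodulin gene CAM5 (Pp1s40_127V6.1) fell from 418 to 79 tags, 5.28-fold (4.14 to 6.8). Of the genes that the study itself followed, 29 of 44 passed the limit of over 100 tags here. Further ones that were higher were ACL5 (Pp1s41_50V6.2), a thermospermine synthase in Arabidopsis, which went from 20 to 129 tags, 6.47-fold (4.02 to 10.9), the protein methyltransferase gene STE14B (Pp1s112_210V6.2), from 27 to 160 tags, 5.94-fold (3.93 to 9.29), and RHD3 (Pp1s33_217V6.1), which shapes the endoplasmic reticulum, from 26 to 122 tags, 4.7-fold (3.06 to 7.49). VIP3 (Pp1s22_260V6.1), a part of the transcription-elongating Paf1 complex, fell from 771 to 76 tags, 10.1-fold (7.99 to 13), the histone methyltransferase homologue ATX1 (Pp1s67_56V6.1) fell from 202 to 48 tags, 4.2-fold (3.05 to 5.88), and SKP1 (Pp1s7_342V6.1), a subunit of SCF ubiquitin ligases, fell from 1349 to 644 tags, 2.09-fold (1.9 to 2.3). The auxin transporter homologues ABCB4 (Pp1s391_45V6.1), at 130 and 87 tags, and ABCB19 (Pp1s252_67V6.1), at 1822 and 1200, were not called.

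The GO list of chromatin and histone genes had 4 of 50 higher and 18 lower, with a median log2 ratio of -0.55. Families named in the annotation, which were chosen after their values had been seen, lay on both sides. Core histones, the protein spools of DNA whose genes are mostly read in dividing cells, had 7 of 14 lower and 0 higher, with a median of -0.98. Histone H3 (Pp1s96_114V6.1) fell from 386 to 18 tags, 21.4-fold (13.4 to 36.5). A histone matched to H3 and H4 (Pp1s35_164V6.1) fell from 502 to 30 tags, 16.7-fold (11.5 to 25), and H2B (Pp1s37_236V6.1) fell from 1049 to 233 tags, 4.49-fold (3.89 to 5.2). Histone genes are a multigene family with near-identical copies, and the authors discarded tags that matched several genes, so that these values stand for the copies with a tag of their own. Histone chaperones, nucleosome assembly and HMG proteins had 5 of 8 lower and 0 higher, or 3 of 8 lower when scaled to total gene tags, among them HMGB1 (Pp1s223_15V6.1), which fell from 1488 to 297 tags, 5.0-fold (4.41 to 5.68). The tag of H3, shown because its loss is among the largest of the histones, was read from one site on both days.
H3 (Pp1s96_114V6.1): CATGccgaaagatattcagct

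Tested ATP-dependent remodellers and RNA silencing genes were more often higher than lower, beside 23.2% higher and 26.4% lower of all tested genes. The members named for these groups, and the methyltransferase below, passed the tag limit only through the day 24 library. Members as scarce at day 14 that did not rise would not have been tested, so that these counts do not stand for whole families. Among SNF2, SWI/SNF and SWIRM proteins 7 of 10 were higher and 1 lower, with a median of 1.47. SWR1 (Pp1s55_124V6.1), which in yeast exchanges a histone variant, went from 10 to 152 tags, 15.2-fold (8.06 to 32.4), and a SWIRM-domain protein (Pp1s38_399V6.1) went from 50 to 382 tags, 7.66-fold (5.69 to 10.5). A histone H3 lysine methyltransferase (Pp1s21_358V6.1) went from 8 to 167 tags, 20.9-fold (10.4 to 49.3). In RNA silencing 4 of 7 were higher and 0 lower, with a median of 1.08, led by an RNA-dependent RNA polymerase (Pp1s386_30V6.1), which copies RNA into double strands and went from 34 to 220 tags, 6.49-fold (4.51 to 9.6). Histone deacetylases, which remove acetyl groups from histones, were found on both sides, with 2 of 5 higher and 3 lower. The HD2-type genes Pp1s183_93V6.1 and Pp1s7_389V6.2 fell from 885 to 149 tags, 5.93-fold (4.98 to 7.1) and from 372 to 70 tags, 5.3-fold (4.1 to 6.95), and the class I RPD3-type gene Pp1s180_68V6.1 fell from 167 to 79 tags, 2.11-fold (1.6 to 2.79), while HDA08 (Pp1s142_41V6.1) went from 167 to 416 tags, 2.5-fold (2.08 to 3.01), and the class II RPD3-type gene Pp1s85_154V6.1 went from 119 to 252 tags, 2.12-fold (1.7 to 2.66). The GO list of cell division, DNA replication and microtubule genes had 19 of 84 higher and 23 lower, and 6 and 17 at an assumed coefficient of variation of 0.2, where 10.9% and 14.4% of all tested genes were called higher and lower.

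**Figure D4:**
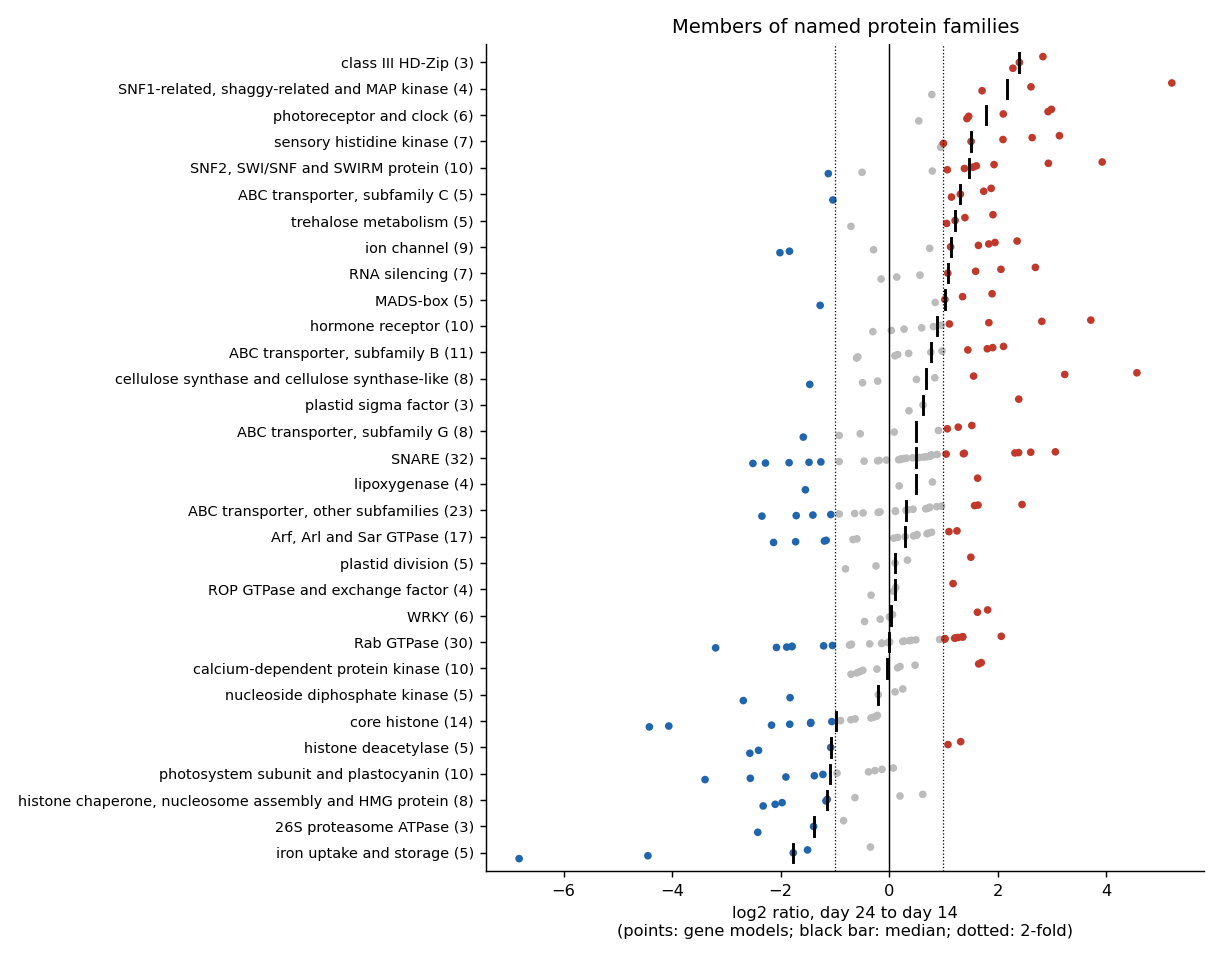
Log2 ratio of day 24 to day 14 for each gene model (points) of 31 protein families named in the deposited annotation, with the number tested in parentheses, black bars for medians and dotted lines at 2-fold. Class III HD-Zip genes lie at the top with a median of 2.40, core histones at -0.98 and iron genes at the bottom.

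Cell wall genes changed in both directions and the list as a whole did not lean, with 51 of 217 higher, 71 lower and a median log2 ratio of -0.19 that turned to 0.066 when scaled to total gene tags. Cellulose synthase 3 (Pp1s8_137V6.1), a subunit of the enzyme that spins cellulose, went from 13 to 308 tags, 23.7-fold (13.7 to 45.1). Cellulose synthase-like CslD2 (Pp1s57_129V6.1) went from 12 to 113 tags, 9.44-fold (5.2 to 18.8) and CslD1 (Pp1s243_3V6.2) went from 308 to 905 tags, 2.95-fold (2.59 to 3.36), while CslD8 (Pp1s68_133V6.1) fell from 116 to 42 tags, 2.76-fold (1.92 to 4.02). The xyloglucan-remodelling enzyme XTH5 (Pp1s122_57V6.1) fell from 787 to 28 tags, 28-fold (19.2 to 42.5). Expansin EXPB3 (Pp1s147_37V6.1) fell from 200 to 8 tags, 24.9-fold (12.4 to 58.6). A gene with pectin lyase terms (Pp1s112_172V6.1) was not listed at day 14 and had 119 tags at day 24, at least 39.8-fold higher. In a group of 16 wall genes with carboxylesterase and external encapsulating structure terms 7 were higher and 3 lower, with a median of 0.88, among them Pp1s67_6V6.1, 0 against 191 tags and at least 63.8-fold higher, and Pp1s215_36V6.1, which went from 5199 to 23124 tags, 4.46-fold (4.33 to 4.6). The tag of cellulose synthase 3 is shown because its gene had the largest ratio among the synthases.
Cellulose synthase 3: CATGtagagaggtatatgaat

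Starch and sucrose metabolism had the highest median of the GO lists, 1.06, with 20 of 37 members higher and 4 lower. Its members are not all enzymes of starch, since the kinase OST1 carries one of its terms. Beta-amylase BAM2 (Pp1s121_168V6.1), which releases maltose from starch, went from 22 to 213 tags, 9.7-fold (6.25 to 15.8). A debranching enzyme (Pp1s44_268V6.1), at the other end, fell from 9836 to 2018 tags, 4.86-fold (4.63 to 5.1). Of 5 genes of trehalose metabolism, whose phosphate reports sugar supply in flowering plants, 4 were higher and 0 lower. Trehalose phosphate synthase TPS5 (Pp1s153_142V6.1) went from 579 to 1523 tags, 2.64-fold (2.39 to 2.91). Genes of glycolysis, the citrate cycle and pentose phosphates moved the other way, with 40 of 104 lower and 9 higher and a median of -0.64.

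Several genes for solute movement and small molecules were higher by large folds. The sodium/proton antiporter SOS1 (Pp1s12_8V6.1) went from 11 to 307 tags, 28-fold (15.4 to 56.6). The vacuolar aquaporin TIP1;3 (Pp1s156_153V6.2) went from 2289 to 10536 tags, 4.61-fold (4.41 to 4.83). A lipid transfer protein (Pp1s126_84V6.2) went from 3 to 162 tags, 54.1-fold (18.2 to 265), and a second one (Pp1s136_71V6.1) went from 67 to 4841 tags, 72.4-fold (56.9 to 93.6). Large ratios were thus found both in genes nearly unlisted at day 14 and in genes with many tags. A metallothionein (Pp1s64_223V6.1), a metal-binding protein, went from 50 to 626 tags, 12.5-fold (9.4 to 17.1), a TspO-like protein (Pp1s281_123V6.1) went from 46 to 1133 tags, 24.7-fold (18.4 to 33.9), the cationic amino acid transporter homologue CAT3 (Pp1s119_47V6.2) went from 171 to 1075 tags, 6.3-fold (5.36 to 7.45), and an alkylresorcinol synthase (Pp1s34_206V6.5), a polyketide synthase, went from 2 to 169 tags, 84.7-fold (23.1 to 705). Lipoxygenases, enzymes that oxidise fatty acids, changed both ways, since lipoxygenase-2 (Pp1s419_10V6.1) went from 2225 to 6880 tags, 3.1-fold (2.95 to 3.25) and lipoxygenase-6 (Pp1s171_146V6.1) fell from 16998 to 5819 tags, 2.91-fold (2.83 to 3.0). Membrane transporters as a list had 48 of 224 (21.4%) higher and 60 (26.8%) lower, near the 23.2% and 26.4% of all tested genes.

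Photosynthesis genes were lower at day 24 or not called, with few higher. In photosystem I 12 of 23 genes were lower and 0 higher, with a median log2 ratio of -1.05, and in photosystem II 17 of 29 were lower and 0 higher, with a median of -1.25. Subunit PsaO (Pp1s248_60V6.1), which docks light-harvesting complexes to photosystem I, fell from 44406 to 4217 tags, 10.5-fold (10.2 to 10.8). Its neighbour in number and second PsaO gene (Pp1s248_61V6.2) fell from 5395 to 914 tags, 5.89-fold (5.49 to 6.32). PSAD-2 (Pp1s107_188V6.1) fell from 2068 to 98 tags, 21.1-fold (17.2 to 26.1), and ferredoxin FED A (Pp1s146_120V6.1), the electron carrier after photosystem I, fell from 18400 to 2076 tags, 8.84-fold (8.45 to 9.26). These were among the steepest of the list, and other subunits stood still. PsaH (Pp1s89_62V6.1), at 2384 and 2509 tags, and PSBR (Pp1s15_409V6.1), at 8329 and 8737 tags, were not called. The PsaO tag is shown because its loss is one of the largest in tags of the whole comparison.
PsaO (Pp1s248_60V6.1): CATGtccattcgttgtttata

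Carbon fixation followed the photosystems, with 19 of 33 genes lower and 4 higher and a median of -1.10. A small subunit of RuBisCO (Pp1s25_114V6.1), the enzyme that fixes carbon dioxide, fell from 58166 to 9620 tags, 6.03-fold (5.9 to 6.16). Chlorophyll and porphyrin synthesis had 25 of 54 lower and 4 higher, with a median of -0.86. The plastid chaperonin CPN20 (Pp1s12_216V6.1) fell from 924 to 44 tags, 21-fold (15.5 to 29), and PTAC13 (Pp1s101_102V6.2), a protein of the plastid transcription complex, fell from 446 to 15 tags, 29.7-fold (17.8 to 53.4). Genes of plastid upkeep were not uniformly lower. SIG5 (Pp1s92_33V6.1), a sigma factor that directs the plastid RNA polymerase in stress and blue light in Arabidopsis, went from 30 to 157 tags, 5.25-fold (3.53 to 8.03) and so was higher. Of 5 plastid division genes 1 was higher, 0 lower and 4 not called, a share near the 23.2% of all tested genes called higher.

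Ribosomal genes were lower for both compartments. Of 88 ribosome genes with a plastid or other organellar term 45 were lower and 5 higher, with a median of -1.09, and of the other 141 genes 55 were lower and 9 higher, with a median of -0.61. Translation factors had 32 of 98 lower and 10 higher, protein folding 10 of 21 and 2, and RNA splicing and processing 43 of 111 and 13. Iron uptake and storage genes, though few, went with the plastid lists, since 4 of 5 were lower and 0 higher. A ferric reductase-like gene (Pp1s54_173V6.1), which reduces iron for uptake, had 340 tags at day 14 and was not listed at day 24, at least 113-fold lower. An FTR1-like iron permease gene (Pp1s99_150V6.1) fell from 1180 to 54 tags, 21.8-fold (16.6 to 29.2). Ferritin (Pp1s59_356V6.1), which stores iron in plastids of plants, fell from 1054 to 309 tags, 3.4-fold (2.99 to 3.88), whereas a second ferritin (Pp1s51_217V6.1), at 332 and 261 tags, was not called.

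The same genes were set beside captured cells of day 14 protonema, where 21.8% of 4292 genes tested were higher in caulonema and 16.5% higher in chloronema. Both comparisons tested 4029 genes, of which 615 were higher at day 24, which is 33.6% of all called higher, and 1320 were lower, which is 63.2% of all called lower, so that fewer of the genes higher at day 24 were measured in captured cells. Of the 615, 285 or 46.3% were higher in caulonema and 23 or 3.74% in chloronema, and the median caulonema to chloronema log2 ratio was 0.90. Of the 1320, 149 or 11.3% were higher in caulonema and 350 or 26.5% in chloronema, with a median of -0.32. Genes not called between the days had 20.3% and 13.8%, with a median of 0.16. Among the genes that passed the limit in these libraries, those higher at day 24 stood mostly on the caulonema side. Those lower at day 24 stood more often on the chloronema side. The caulonema library held 2557991 gene tags and the chloronema library 1733082, so that a scarce gene passed the limit of over 100 tags more easily through caulonema. Genes higher at day 24 were the scarcer ones, and the part of this limit in their shares was not tested. Without genes that carry plastid or ribosome terms the shares were 47.0% and 3.57% for genes higher at day 24, and 12.1% and 26.2% for genes lower, beside 23.7% and 15.1% of all such genes. Among genes at a mean of 50 to 200 normalized TPM in the captured libraries the shares were 38.9% and 4.37% against 9.19% and 28.1%, beside 16% and 18.7% of all. Above 200 they were 32.7% and 14.5% against 6.19% and 33.6%, beside 10.9% and 25% of all. These subsets were chosen after the values had been seen, the shares of captured-tissue calls carry no test, and each captured tissue was 1 library.

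**Figure D5:**
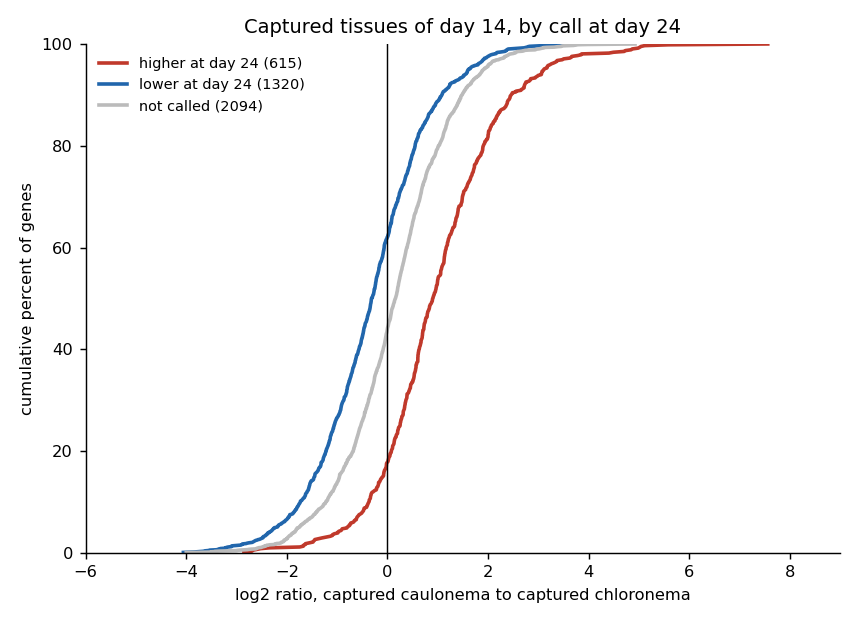
Cumulative percent of genes (vertical) by log2 ratio of captured caulonema to captured chloronema at day 14 (horizontal), for 615 genes higher at day 24 (red), 1320 lower (blue) and 2094 not called (grey). The red curve lies to the right with a median of 0.90 and the blue to the left with a median of -0.32.

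Of the 15 gene models with the largest ratios in each direction, 2 that were higher and 3 that were lower had a name, beside 1043 of all 7913 tested. Pp1s52_249V6.1 went from 4 to 951 tags, 238-fold (92.8 to 876), Pp1s307_26V6.1 went from 32 to 2951 tags, 92.4-fold (65.3 to 135) and Pp1s42_188V6.1 went from 222 to 10777 tags, 48.7-fold (42.6 to 55.8). In tags, the largest gains were in Pp1s109_232V6.2, 31974 and 128491, Pp1s8_156V6.1, 51777 and 126984, and Pp1s350_5V6.2, 65406 and 156426, all without a name. The largest losses in tags were in Pp1s66_172V6.1, which fell from 93621 to 4956 tags after 306706 at day 3, and in the RuBisCO and PsaO genes described above. The 10 most abundant gene models gave 8.74% of gene tags at day 14 and 11.8% at day 24, and 7 of them were the same.

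Abundance and tag position moved with the calls. Among 1645 gene models with a mean of at most 20 normalized TPM, 36.7% were higher and 27.7% lower, and the share called higher was smaller in each more abundant group, down to 8.81% of 159 above 1000, where 31.4% were lower. In 3800 of 14892 gene models listed on both days, or 25.5%, the reported CATG site differed between the days. Among 5135 with over 100 tags in each library 1068 differed, and 865 of these were read nearer the 3′ end at day 24 and 203 farther from it. The site nearest the 3′ end gave 53.9% of gene tags at day 14 and 62.6% at day 24. Of 6229 tested genes read from one site on both days, 21.9% were higher and 27.6% lower, with a median log2 ratio of -0.13, while of 1668 read from different sites 27.4% and 21.9% were, with a median of 0.11. Among the genes described above with a fold difference, the site differed in HB13, PpMADS1, PPM3, the heme oxygenase, ETR7, the WOL-like gene, GA2OX8, the shaggy-related kinase, SKP1, HMGB1, CslD2, Pp1s215_36V6.1, the FTR1-like gene and Pp1s42_188V6.1. The part of tag position in the differences between days was not tested.

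Tag pairs of the most abundant genes whose site differed are shown because in each the 2 libraries listed different places of the transcript. Whether the counts cover only the listed tags is not stated. Pp1s38_196V6.1 was read at site 5 with 75260 tags and then at site 4 with 38967. Pp1s186_25V6.2, the pair that moved away from the 3′ end, was read at site 3 with 40766 tags and then at site 4 with 9195.
Pp1s38_196V6.1, day 14: CATGatgaagaggtccatccg
Pp1s38_196V6.1, day 24: CATGggattcagtctttttga
Pp1s186_25V6.2, day 14: CATGtgatgacgaacggttgt
Pp1s186_25V6.2, day 24: CATGggcatacgccaccaact

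How many calls a spread between cultures would leave was computed with an assumed value, since none could be measured. At an assumed coefficient of variation of 0.2, edgeR's exact test called 861 gene models higher and 1137 lower, and at 0.4 it called 68 and 55. At 0.2 the protein kinases had 51 of 213 higher and 8 lower and the transcription regulators 39 of 155 and 12, beside 10.9% higher and 14.4% lower of all tested, and photosystem and thylakoid genes had 4 of 292 higher and 95 lower. The 3 class III HD-Zip genes, PpMADS1, KANADI 3, PHOTA2, phytochrome 5b3, TIRA2, OST1, VIP3 and CAM5 were called at 0.2 and not at 0.4. PPM3, PPMA9, PHOTB1, cryptochrome 1a, ETR7 and SKP1 were called at neither. MPK12, GA2OX8, TINY2, SOS1, cellulose synthase 3, XTH5, EXPB3 and H3 were called at both.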

How the data were processed

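The authors matched tags of 21 nt to Phytozome gene models and left out tags fitting more than one gene. The deposited values were tag counts per gene model, and the deposited TPM were those counts divided by library size. The sources do not say whether a count covers only the listed tag of a gene. An unlisted gene was set to 0, and the lowest listed count was 2. Counts were scaled by TMM (edgeR 4.0.16, R 4.3.3) and tested by a two-sided exact binomial test (scipy 1.17.1, Python 3.11.15) with Benjamini-Hochberg adjustment over 7913 gene models. A quasi-likelihood fit in edgeR was not possible with 1 library per day. Named genes were those with the 15 largest ratios and the largest gains and losses, the genes the study followed, and all members of families found by their database names. Members and lists were chosen with earlier results of these data known, families after their values had been seen, and the genes described were picked from them afterwards. Symbols are those of Arabidopsis or database matches in the deposited and supplementary annotation. No identifier matched a reference gene table, so that no coordinates are given.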

Additional observations from a re-analysis of the deposited data

How the results depend on the processing

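No result has a replicate check, and no library could be left out. No paired analysis was possible because each day was 1 pooled library. The calls of 1832 gene models higher and 2088 lower became 715 and 1091 with over 100 tags required in each library, 603 and 775 over 4-fold, and 3167 higher with no filter, where 3099 were lower. With edgeR's exact test at assumed coefficients of variation of 0.2 and 0.4 they became 861 and 1137, and 68 and 55. They were 1835 and 2086 with DESeq2 1.42.0 size factors, 1892 and 2027 with the deposited TPM, 2289 and 1660 with total gene tags, and 1363 and 1718 where the CATG site was the same. Of 471 named gene models, DESeq2 size factors changed no call, the deposited TPM changed 3 and total gene tags 27, and none reversed. Median log2 ratios of lists reversed only near 0. With total gene tags the cell wall list moved to 0.066, lipid metabolism to 0.10, osmotic stress to 0.045, cell division to 0.069, membrane transporters to 0.041 and response to light to 0.17. With over 10 tags as the filter, cell division moved to 0.069, response to light to 0.13 and small GTPase signalling to -0.057. With the same CATG site, organ development moved to -0.076, cell growth to -0.11 and small GTPase signalling to -0.020. The cause was not tested. Depth limits the scarce genes most, since at 2 or 3 tags on one day the interval of a ratio spans more than 10-fold.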

Other observations

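Of 32 SNARE genes, which fuse vesicles with their target, 7 were higher at day 24 and 5 lower, and of 30 Rab GTPases, which mark vesicle identity, 8 were higher and 7 lower, beside 23.2% and 26.4% of all tested genes. When scaled to total gene tags the SNARE genes had 13 higher and 4 lower. The Qa-SNARE SYP12A (Pp1s300_43V6.1) went from 45 to 376 tags, 8.38-fold (6.14 to 11.7), while another Qa-SNARE (Pp1s73_233V6.2) fell from 360 to 74 tags, 4.85-fold (3.77 to 6.32). A Rab6 gene (Pp1s288_43V6.1) went from 140 to 586 tags, 4.2-fold (3.48 to 5.08), and RAB6A (Pp1s12_267V6.1) fell from 186 to 44 tags, 4.22-fold (3.02 to 6.0). Tags shared by close copies were discarded by the authors, so that such pairs rest on the tags that differ. Of 4 ROP GTPase and exchange factor genes, which steer polar growth at the tip, only ropgefA (Pp1s34_404V6.1) was called, from 100 to 226 tags, 2.27-fold (1.78 to 2.9).

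Of ABC transporters, subfamily C, of multidrug resistance type, had 4 of 5 higher and 1 lower, subfamily B 4 of 11 higher and 0 lower, and subfamily G 3 of 8 higher and 1 lower. The other subfamilies had 3 of 23 (13.0%) higher and 4 (17.4%) lower, which became 6 higher and 3 lower when scaled to total gene tags. Of 9 ion channels 5 were higher and 2 lower. These families are small, and of all tested genes 23.2% were higher and 26.4% lower.

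Beside the other libraries of whole cultures, the genes higher at day 24 had medians of 20.8, 13, 43.8 and 26 normalized TPM at days 3, 14, 24 and 30, and the genes lower had 39.4, 64.5, 18.3 and 29.7. The genes were chosen for the gap between days 14 and 24, so that nothing is read from where the other days stand beside it. All tested genes had 35.6, 38.5, 37.6 and 29.7.

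Gene models with consecutive numbers, which usually neighbour each other on a scaffold, were compared for direction. Of 1312 such pairs that were both tested, both were called in 309, and 158 of these, or 51.1%, moved in the same direction. Among all called genes 46.7% were higher. The share expected of unrelated pairs was not computed, so that nothing is read from the value.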
